A study of Mus musculus with 16 samples.

Results

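Myelin and mature oligodendrocyte genes were examined as a group of 32 genes, chosen for their known roles in the myelin sheath and in the cells that make it. Each was read from the probe set annotated to it, and each had exactly 1 such probe set. They are 32 of the 19938 genes measured with a single annotated symbol. The choice of genes used no measured value of their own, but it was made with earlier results of these arrays known.

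RNA was measured on 16 one-colour arrays, 1 per tissue sample, from mice of 2.5 months with a mixed background of C57BL/6 and CD1. The samples came from the core of the olfactory bulb (OB) and the subependymal zone (SEZ), the stem cell niche along the lateral ventricle. Conditional knockout mice (cKO) were GlastCreERT2/Brg1fl/fl, with 2 floxed copies of Brg1, and control mice were GlastCreERT2/Brg1fl/+, with 1 floxed copy. The groups were 3 OB cKO, 5 OB control, 3 SEZ cKO and 5 SEZ control samples. SEZ control replicate 5 is labelled GlastCreERT2/Brg1+/+, with 0 floxed copies, whereas OB control replicate 5 is labelled as the other controls are. Brg1, encoded by Smarca4, supplies the ATPase activity of SWI/SNF, a complex that remodels chromatin. All animals carried CreERT2, a tamoxifen-dependent recombinase, at the Glast locus (Slc1a3), which is active in astrocytes and adult neural stem cells. The labels list no treatment and do not give the sex, and whether a sample pooled animals is not stated in the sources used here. The labels call the samples biological replicates.

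Oligodendrocytes wrap axons in many layers of their own membrane, the myelin sheath, which speeds conduction. The compact part of the sheath is held together by Mbp and membrane-spanning proteins, its lipids are rich in galactosylceramide and sulfatide, and adhesion molecules on its inner face and at its edges bind the axon. Myrf, a membrane-released transcription factor, and SoxE factors such as Sox10 switch on many of these genes when a progenitor matures. In the adult forebrain, myelinated fibres run through the striatum and corpus callosum beside the SEZ and through the centre of the bulb. Brg1 is known to work with Olig2 in maturing oligodendrocytes.

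The 250 bases upstream of the gene start are shown for 4 of the 17 members with a single upstream window in the tables, since Opalin differed most between the tissues, Cnp and Ppp1r14a each held 2 matches of the Myrf motif, and Apod did not follow the other members. Mag also held 2 Myrf matches in a window, but has several windows and is not shown. The sequences are from RefSeq, build GRCm38.p6, 5′ to 3′ on the strand of the gene. Capitals mark matches of the Myrf core motif CTGGNAC and of the Sox motifs ACAAAG and ACAATG on either strand.
Opalin, chr19:41077114-41077363, minus strand: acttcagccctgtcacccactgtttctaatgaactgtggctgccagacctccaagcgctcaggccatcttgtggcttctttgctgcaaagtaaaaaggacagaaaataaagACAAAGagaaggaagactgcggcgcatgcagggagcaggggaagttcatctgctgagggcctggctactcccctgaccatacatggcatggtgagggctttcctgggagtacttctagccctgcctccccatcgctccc
Cnp, chr11:100574689-100574938, plus strand: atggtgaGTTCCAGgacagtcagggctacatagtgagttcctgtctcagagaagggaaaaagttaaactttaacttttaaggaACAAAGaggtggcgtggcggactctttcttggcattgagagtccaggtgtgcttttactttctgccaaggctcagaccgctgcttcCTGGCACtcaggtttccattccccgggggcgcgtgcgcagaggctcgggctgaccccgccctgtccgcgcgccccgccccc
Ppp1r14a, chr7:29289070-29289319, plus strand: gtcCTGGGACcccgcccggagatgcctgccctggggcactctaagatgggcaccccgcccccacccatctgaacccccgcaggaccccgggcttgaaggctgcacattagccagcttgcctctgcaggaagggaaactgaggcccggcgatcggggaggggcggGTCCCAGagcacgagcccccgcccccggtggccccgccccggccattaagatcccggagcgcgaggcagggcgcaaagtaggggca
Apod, chr16:31314809-31315058, minus strand: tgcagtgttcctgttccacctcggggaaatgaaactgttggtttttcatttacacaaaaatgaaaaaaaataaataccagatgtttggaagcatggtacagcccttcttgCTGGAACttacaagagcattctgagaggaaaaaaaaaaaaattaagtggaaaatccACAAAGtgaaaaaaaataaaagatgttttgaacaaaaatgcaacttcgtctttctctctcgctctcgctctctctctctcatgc
The tables held upstream windows for 25 of the 32 members, 39 windows in all. The Myrf motif was in 13 of these 39 windows (33.3%), against 5275 of all 32851 windows (16.1%). A Sox motif was in 16 of the 39 (41%), against 8292 of all windows (25.2%). A gene can have several windows, which can overlap, so the same match may count more than once. Of the 25 members, 11 held a Myrf match and 12 a Sox match in at least 1 of their windows, as did 4844 and 7608 of all 27025 genes in the tables. Counting the base before the start as -1, the Sox match of Opalin began at -139, the Myrf match of Apod at -140 and its Sox match at -84. These counts describe letters in short windows, and no binding was measured.

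Values are log2 expression as deposited, normalised across arrays, and differences are in log2 units. Genes were tested with limma across all 19938 genes, with p-values adjusted by Benjamini and Hochberg and a threshold of 0.05. Smarca4 was at 11.02 ± 0.06 in OB cKO (n = 3) and 11.01 ± 0.04 in OB control samples (n = 5), and at 10.70 ± 0.08 in SEZ cKO (n = 3) and 10.71 ± 0.04 in SEZ control samples (n = 5, SD). This level is no check of the deletion, since the probe set covers the gene as a whole and unrecombined cells are present in the tissue. Some arrays stood apart before any comparison. In the cKO replicate 1 pair, Xist was 6.08 in the OB sample and 12.40 in the SEZ sample, and Kdm5d was 9.37 and 6.18. Both genes are sex-linked, so the OB and SEZ samples of this number were not from the same animal. In the cKO replicate 3 pair, Slc1a3 was 8.85 in OB and 8.16 in SEZ, against 11.16 to 12.27 on the 14 other arrays. SEZ control replicates 2 and 4 were high in the mean over 9 cortical neuron markers, with Slc17a7 at 10.58 and 11.06. Not every marker followed, as Lamp5 was lowest of the SEZ controls in replicate 2 (10.57) and Rasgrf2 highest in replicate 5 (9.09). The results were also computed without each of these sets of arrays.

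Myelin genes were lower in OB than in SEZ. In controls, 29 of the 32 members passed the test as lower in OB and 0 as higher, where 14.9% of all genes were called lower and 12.6% higher. All 32 estimates lay below 0, and 29 had an unadjusted p under 0.05, where 35.8% of all genes did. Their median was -1.02, against 0.00 over all genes, and they ran from -1.92 for Opalin to -0.11 for Apod. In 27 members every OB control array lay below every SEZ control array, which held for 11.9% of all genes, and in 0 did they lie above, where 9.93% of all genes did. The exceptions were Nfasc, Gal3st1, Apod, Gsn and Car2. In whole tissue, fewer oligodendrocytes and less of these RNAs per oligodendrocyte cannot be told apart.

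The same contrast between cKO samples gave 28 members lower in OB and 0 higher, where 13.1% of all genes were called lower and 10% higher. At an unadjusted p under 0.05 there were 29 members and 32.8% of all genes. The median difference was -0.99, against -0.02 over all genes. In 29 members the 3 OB cKO arrays lay below the 3 SEZ cKO arrays, which held for 19% of all genes, and in 0 above, where 14.3% of all genes did. Nfasc, Apod and Car2 overlapped. The members that did not pass were these 3 and Gal3st1 (-0.30, SE 0.13, adjusted p = 0.111). For every member the tissue difference in cKO samples lay within 0.3 of that in controls, the widest gap being 0.28 for Mal. Without the cKO replicate 1 pair 22 members were lower in OB cKO, and Mobp, Cntn2, Ugt8a, Gsn, Nkx6-2 and Tmem125 no longer passed, with adjusted p from 0.0556 to 0.258 on 2 arrays per group. Calls fell over all genes too, with 1687 of 19938 lower in OB cKO, against 2621 with all arrays. The calls of Gsn and Tmem125 were also lost without OB cKO replicate 1 alone and without SEZ cKO replicate 1 alone, and that of Gsn without OB cKO replicate 3 or SEZ cKO replicate 2 (adjusted p from 0.0552 to 0.0987). Without the cKO replicate 3 pair the count was 28, where 1863 of all 19938 genes were called lower.

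**Figure D1:**
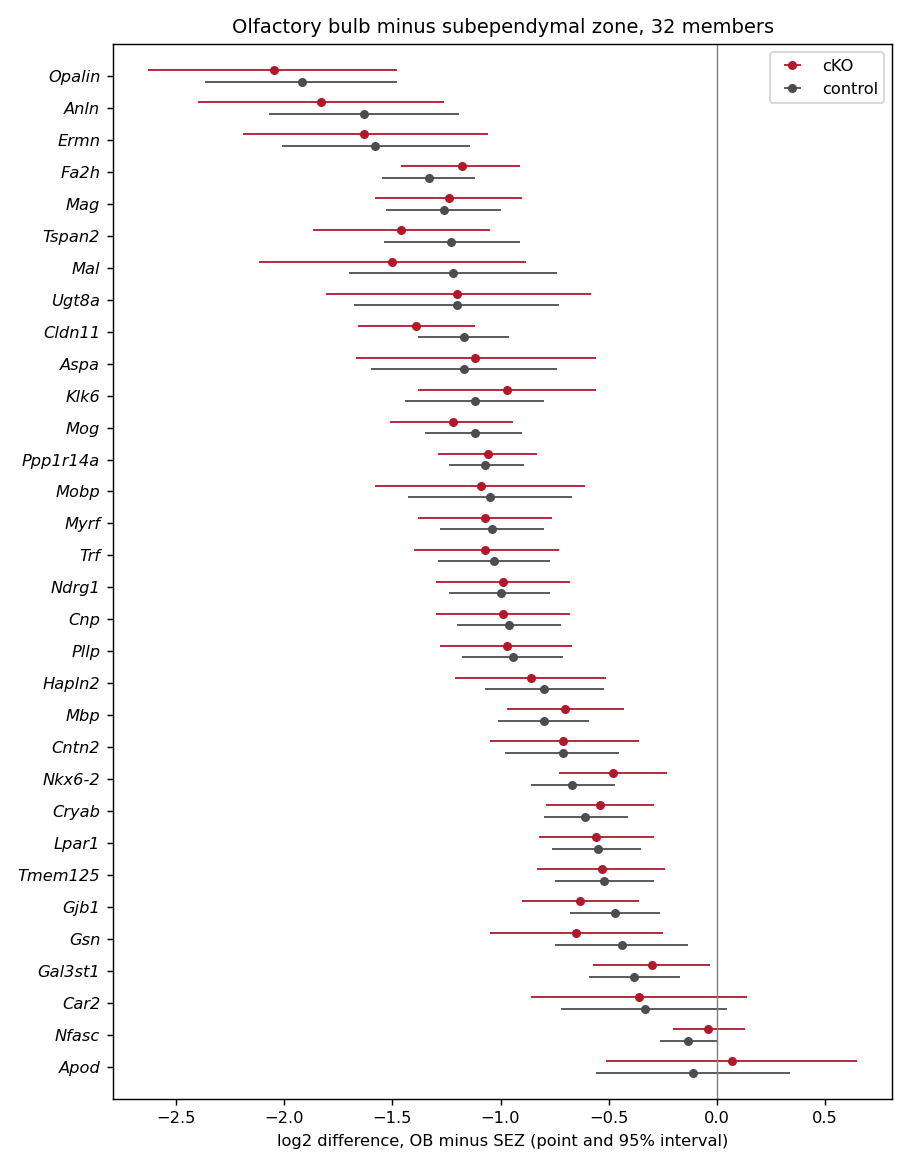
Difference OB minus SEZ (log2 units, horizontal axis) of each of the 32 members, ordered by the tissue difference in controls, in cKO and in control samples. Points are limma estimates and bars are 95% intervals; estimates in controls run from -1.92 (Opalin) to -0.11 (Apod), and the cKO estimates lie close beside them.

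All 7 genes of compact myelin and its membrane were lower in OB, in cKO as in control samples. Tspan2, a tetraspanin of the oligodendrocyte membrane, had 8.95, 9.41 and 8.94 in OB cKO and 9.16, 9.32, 9.63, 9.41 and 9.52 in OB control samples, against 10.86, 10.52 and 10.30 in SEZ cKO and 10.51, 10.94, 10.21, 10.56 and 10.96 in SEZ control samples. Every OB array lay below every SEZ array. The difference was -1.46 in cKO (SE 0.19, adjusted p = 1.92e-05) and -1.23 in controls (SE 0.15, adjusted p = 5.36e-06). Gjb1, the gap junction protein connexin 32, showed the smallest difference of the group, -0.63 in cKO (SE 0.13, adjusted p = 0.0014) and -0.47 in controls (SE 0.10, adjusted p = 0.00141). Its arrays had 7.73, 7.70 and 7.86 in OB cKO and 7.96, 7.73, 7.88, 7.79 and 7.57 in OB controls, against 8.30, 8.23 and 8.64 in SEZ cKO and 8.23, 8.39, 8.44, 7.99 and 8.23 in SEZ controls. The lowest SEZ control, replicate 4, was only just above the highest OB control, replicate 1.

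Mal, a proteolipid of membrane trafficking, was the member with the widest spread within groups. It had 9.62, 10.75 and 9.97 in OB cKO and 10.14, 10.59, 10.04, 10.60 and 10.69 in OB controls, against 11.97, 11.71 and 11.16 in SEZ cKO and 11.26, 12.02, 11.15, 11.74 and 11.97 in SEZ controls. All OB arrays were still below all SEZ arrays. Cldn11, the claudin that seals the layers of the sheath, varied less. It had 10.16, 10.61 and 10.52 in OB cKO and 10.59, 10.51, 10.55, 10.58 and 10.74 in OB controls, against 12.04, 11.67 and 11.76 in SEZ cKO and 11.86, 11.88, 11.61, 11.55 and 11.90 in SEZ controls. Mbp, the basic protein that zips the cytoplasmic faces together, averaged 11.51 ± 0.21 in OB cKO and 11.43 ± 0.07 in OB controls, against 12.21 ± 0.12 in SEZ cKO and 12.23 ± 0.22 in SEZ controls. Its tissue difference in controls was -0.80, smaller than that of Mobp, a second basic protein of the sheath (-1.05), and of Pllp, the membrane protein plasmolipin (-0.94).

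Of the 7 surface and axon contact genes, 6 were lower in OB in both genotypes and Nfasc was not. Opalin, a sialylated glycoprotein of central myelin, showed the widest difference of all members. Its arrays had 7.14, 7.96 and 7.54 in OB cKO and 7.59, 7.86, 7.79, 7.90 and 7.92 in OB controls, against 9.73, 9.63 and 9.44 in SEZ cKO and 9.22, 10.48, 9.12, 9.85 and 10.01 in SEZ controls. The OB controls spanned a narrow range and the SEZ controls a wide one, with replicates 1 and 3 low and replicate 2 high. The difference was -2.05 in cKO (SE 0.27, adjusted p = 2e-05) and -1.92 in controls (SE 0.21, adjusted p = 1.52e-06), a 3.79-fold lower level in OB.

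Nfasc, whose glial form anchors the paranodal loops and whose neuronal form sits at nodes, was nearly level. It had 10.93, 11.03 and 11.07 in OB cKO and 10.94, 10.84, 10.91, 10.86 and 10.99 in OB controls, against 11.07, 10.94 and 11.11 in SEZ cKO and 10.87, 11.00, 11.11, 11.09 and 11.10 in SEZ controls. The groups overlapped, and the difference was -0.04 in cKO (SE 0.08, adjusted p = 0.825) and -0.13 in controls (SE 0.06, adjusted p = 0.147). The control difference passed with array weights (adjusted p = 0.0199), and leaving out SEZ control replicate 1 also made it pass (adjusted p = 0.0433). Neurons also express Nfasc, and the probe set does not separate its forms. In controls, Ermn, which binds actin in late oligodendrocytes, differed by -1.58, the adhesion protein Mag by -1.26 and the surface antigen Mog by -1.12. Hapln2, a link protein of the matrix at nodes, differed by -0.80 and Cntn2, the adhesion molecule of the juxtaparanode, by -0.71.

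Lipid genes were mixed. Ugt8a, Fa2h and Aspa passed as lower in OB in both genotypes, Gal3st1 in controls, and Apod in neither. Fa2h, which adds the hydroxyl group to myelin sphingolipids, had 9.80, 10.04 and 9.72 in OB cKO and 9.79, 9.67, 9.73, 9.61 and 9.97 in OB controls, against 11.05, 11.15 and 10.91 in SEZ cKO and 11.04, 11.32, 10.88, 10.91 and 11.31 in SEZ controls. A wide gap separated the tissues, with a difference of -1.18 in cKO (SE 0.13, adjusted p = 2.5e-06) and -1.33 in controls (SE 0.10, adjusted p = 1.57e-08). Ugt8a, which makes galactosylceramide, had 9.51, 9.80 and 9.54 in OB cKO and 9.51, 9.66, 9.48, 9.55 and 10.04 in OB controls, against 10.91, 11.11 and 10.42 in SEZ cKO and 10.24, 11.44, 10.20, 10.96 and 11.42 in SEZ controls. The tissues did not overlap, but SEZ control replicates 2 and 5 stood well above replicates 1 and 3. Gal3st1, which adds the sulfate of sulfatide, differed by -0.38 in controls (SE 0.10, adjusted p = 0.00783). Aspa, which frees acetate from N-acetylaspartate, differed by -1.17 (SE 0.20, adjusted p = 0.000239).

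Apod, a secreted lipid carrier, went its own way. It had 12.95, 12.25 and 12.15 in OB cKO and 12.84, 12.96, 12.42, 11.96 and 11.95 in OB controls, against 12.56, 12.47 and 12.11 in SEZ cKO and 12.61, 12.80, 12.07, 12.41 and 12.80 in SEZ controls. All 4 groups overlapped, and OB cKO replicate 1 and OB control replicates 1 and 2 were the highest arrays of all. The difference was 0.07 in cKO (SE 0.27, adjusted p = 0.904) and -0.11 in controls (SE 0.21, adjusted p = 0.782), with a 95% interval in controls from -0.56 to 0.34. Apod is also made outside oligodendrocytes, by astrocytes and cells of vessels and meninges.

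**Figure D2:**
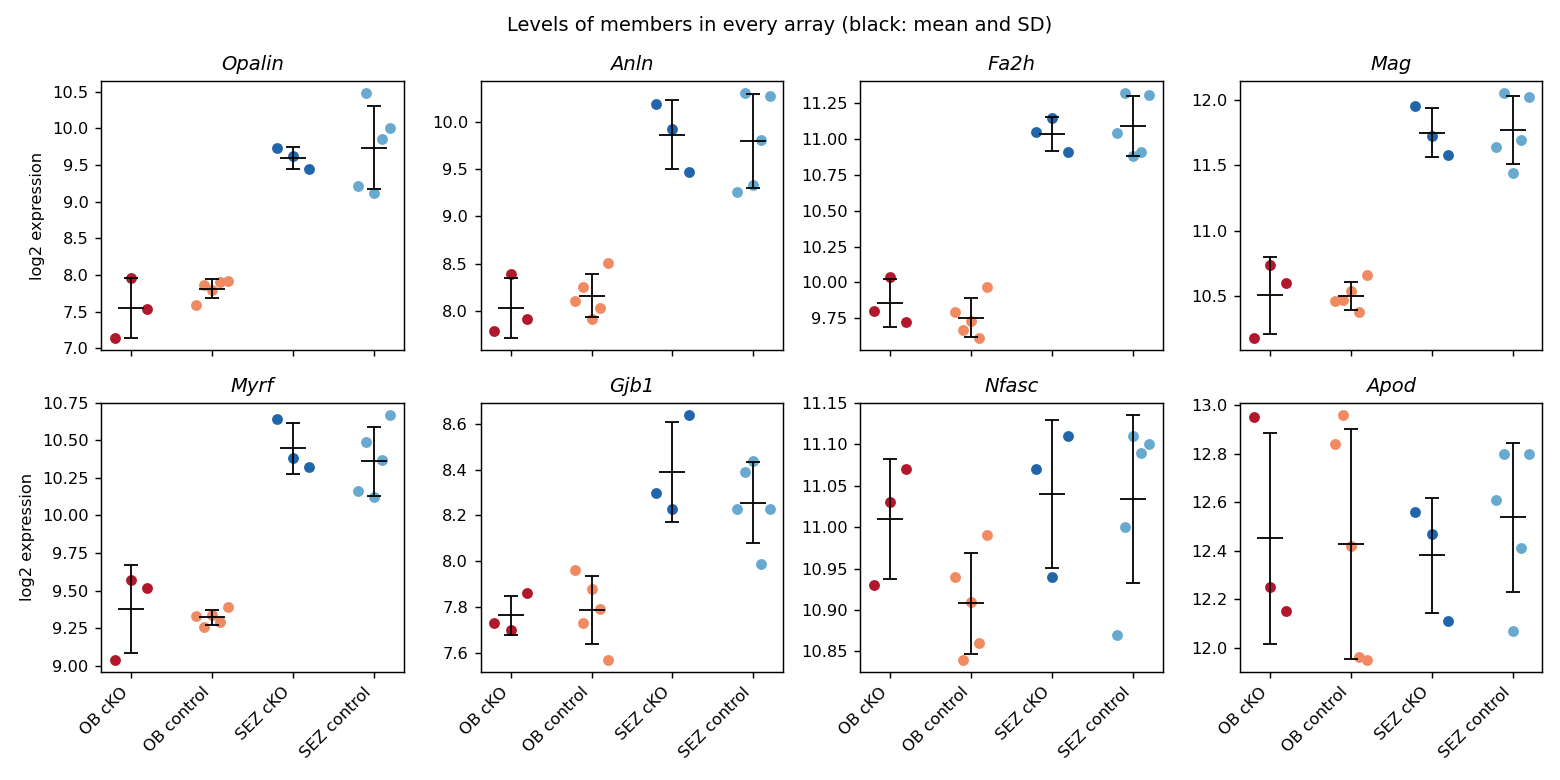
Log2 expression (vertical axis) of 8 members on every array, in the groups OB cKO, OB control, SEZ cKO and SEZ control. Points are arrays, and the marks with bars are group means with SD; Opalin, Anln, Fa2h, Mag, Myrf and Gjb1 are lower on the OB arrays, while Nfasc and Apod overlap between the tissues.

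Among the 7 cytoskeletal and cytoplasmic genes, 6 were lower in OB in both genotypes, and Car2 did not pass. Anln, the actin-binding protein anillin that supports septins along the sheath, had 7.79, 8.39 and 7.91 in OB cKO and 8.11, 8.25, 7.91, 8.03 and 8.51 in OB controls, against 10.19, 9.92 and 9.47 in SEZ cKO and 9.26, 10.30, 9.33, 9.81 and 10.27 in SEZ controls. The lowest SEZ array was above the highest OB array, and the difference was -1.83 in cKO (SE 0.27, adjusted p = 5.95e-05) and -1.63 in controls (SE 0.21, adjusted p = 8.7e-06). Dividing cells also use anillin, at cytokinesis. Car2, a carbonic anhydrase, had 11.22, 11.42 and 11.02 in OB cKO and 10.90, 11.45, 11.08, 11.21 and 11.36 in OB controls, against 11.76, 11.64 and 11.33 in SEZ cKO and 11.03, 12.03, 11.05, 11.61 and 11.94 in SEZ controls. SEZ control replicates 1 and 3 lay among the OB arrays. The difference was -0.36 in cKO (SE 0.24, adjusted p = 0.328) and -0.33 in controls (SE 0.18, adjusted p = 0.213). With a block that paired same-numbered OB and SEZ samples of each genotype, the control difference passed at the same -0.33 (adjusted p = 0.016). That block also paired the cKO samples, of which replicate 1 came from different animals. With array weights the control difference was -0.57 and passed (adjusted p = 0.00611).

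Ppp1r14a, an inhibitor subunit of protein phosphatase, was among the steadiest members. It had 8.77, 8.94 and 9.03 in OB cKO and 8.93, 8.87, 9.06, 8.90 and 8.99 in OB controls, against 10.18, 9.83 and 9.92 in SEZ cKO and 10.06, 10.08, 9.82, 9.91 and 10.20 in SEZ controls. Each tissue kept within a narrow range. Ndrg1, a stress-responsive protein of myelinating glia, had 10.28, 10.69 and 10.23 in OB cKO and 10.28, 10.31, 10.14, 10.32 and 10.21 in OB controls, against 11.50, 11.47 and 11.20 in SEZ cKO and 11.02, 11.57, 11.00, 11.30 and 11.39 in SEZ controls. Cryab, a small heat shock protein, had 11.08, 10.88 and 10.79 in OB cKO and 11.19, 10.83, 10.99, 10.75 and 10.69 in OB controls, against 11.53, 11.41 and 11.43 in SEZ cKO and 11.48, 11.63, 11.48, 11.32 and 11.59 in SEZ controls. Both were lower in OB on every array of their genotype. Cnp, the enzyme that keeps cytoplasmic channels of myelin open, differed by -0.99 in cKO and -0.96 in controls. Gsn, the actin-severing protein gelsolin, differed by -0.65 in cKO (SE 0.19, adjusted p = 0.0179) and -0.44 in controls (SE 0.15, adjusted p = 0.0322). The Gsn call in controls was lost without any single one of OB control replicates 1, 3 and 4 or SEZ control replicates 2, 4 and 5, with values from -0.44 to -0.34 and adjusted p from 0.0583 to 0.0938.

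Both transcription factors were lower in OB. Myrf had 9.04, 9.57 and 9.52 in OB cKO and 9.33, 9.26, 9.34, 9.29 and 9.39 in OB controls, against 10.64, 10.38 and 10.32 in SEZ cKO and 10.16, 10.49, 10.12, 10.37 and 10.67 in SEZ controls. The gap between the tissues was wide on every array, and the difference was -1.07 in cKO (SE 0.15, adjusted p = 2.74e-05) and -1.04 in controls (SE 0.11, adjusted p = 1.43e-06). Nkx6-2, a homeodomain factor of oligodendrocytes that acts in myelination and paranode formation, had 8.31, 8.41 and 8.40 in OB cKO and 8.27, 8.15, 8.40, 8.25 and 8.17 in OB controls, against 8.99, 8.81 and 8.77 in SEZ cKO and 9.03, 9.07, 8.94, 8.52 and 9.02 in SEZ controls. SEZ control replicate 4 was low but above the OB controls. The difference was -0.48 in cKO (SE 0.12, adjusted p = 0.007) and -0.67 in controls (SE 0.09, adjusted p = 2.58e-05).

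The other 4 members all passed as lower in OB in both genotypes. Klk6, a secreted protease of oligodendrocytes, had 8.70, 8.88 and 8.86 in OB cKO and 8.62, 8.60, 8.45, 8.56 and 8.77 in OB controls, against 9.86, 9.91 and 9.58 in SEZ cKO and 9.59, 10.21, 9.34, 9.33 and 10.14 in SEZ controls. SEZ control replicates 2 and 5 were high and replicates 3 and 4 low, all above OB. The difference was -0.97 in cKO (SE 0.20, adjusted p = 0.0013) and -1.12 in controls (SE 0.15, adjusted p = 1.78e-05). Tmem125, a membrane protein, had 7.50, 7.86 and 7.84 in OB cKO and 7.49, 7.71, 7.72, 7.71 and 7.61 in OB controls, against 8.48, 8.22 and 8.10 in SEZ cKO and 8.13, 8.49, 7.94, 8.00 and 8.28 in SEZ controls. Its difference was -0.53 in cKO (SE 0.14, adjusted p = 0.00871) and -0.52 in controls (SE 0.11, adjusted p = 0.00121). Trf, the iron carrier transferrin, differed by -1.03 in controls and Lpar1, a receptor for lysophosphatidic acid, by -0.55.

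Choroid plexus also expresses Trf and Car2. The mean over 9 choroid plexus markers ranged from 6.62 to 6.88 in OB cKO and from 6.50 to 6.93 in OB controls, against 7.22 to 7.51 in SEZ cKO and 7.06 to 7.58 in SEZ controls. In controls 4 of the 9 were called lower in OB and 1 higher, where 14.9% of all genes were called lower and 12.6% higher. In cKO 3 of the 9 were called lower and 0 higher, where 13.1% and 10% of all genes were. Ttr, the transport protein that marks this epithelium, averaged 6.86 ± 0.21 in OB cKO and 7.01 ± 0.33 in OB controls, against 8.90 ± 1.21 in SEZ cKO and 9.23 ± 1.52 in SEZ controls. Aqp1 went the other way, at 7.73 ± 0.32 in OB cKO and 7.21 ± 0.10 in SEZ cKO. In controls Aqp1 was at 7.72 ± 0.48 in OB and 7.09 ± 0.16 in SEZ. Kcnj13 was also higher on average in OB, and Slc4a5 was nearly level in controls. The part of these markers in the values of Trf and Car2 was not tested.

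Brg1 genotype gave no call on any member. The share of oligodendrocytes that had lost Brg1 was not measured, so these whole-tissue contrasts do not test Brg1 within oligodendrocytes. In OB, 0 of the 32 members passed in either direction for cKO minus control. Over all genes limma called 9 genes lower, 0.0451%, and 0 higher, and the members gave 0 of 32 at an unadjusted p under 0.05, where 3.51% of all genes did. The member differences had a median of 0.00, against -0.01 over all genes. They ran from -0.31 for Tspan2 to 0.21 for Klk6, with 17 above 0 and 15 below. All 32 overlapped between genotypes, where 0.958% of all genes lay wholly above and 1.57% wholly below.

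The smallest p-values in OB belonged to Tspan2, Cldn11 and Nfasc. Tspan2 differed by -0.31 (SE 0.17, 95% interval -0.67 to 0.06, unadjusted p = 0.0922 in limma), with OB cKO replicate 2 inside the control range and replicates 1 and 3 below it. Cldn11 differed by -0.16 (95% interval -0.40 to 0.08), with OB cKO replicate 1 below the controls. Nfasc differed by 0.10 (95% interval -0.05 to 0.25), with replicates 2 and 3 above the controls. Each had an adjusted p of 1. Over all members the 95% intervals lay between -0.85 and 0.59, with a median width of 0.58. Each interval is for its own member and is not adjusted for the number of members. Leaving out the cKO replicate 1 pair, the cKO replicate 3 pair or SEZ control replicates 2 and 4 also gave 0 calls on members.

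In SEZ, 0 of the 32 members passed for cKO minus control, as did 0 of all 19938 genes. At an unadjusted p under 0.05 limma had 0 members and 2.47% of all genes. The median over members was 0.00, the same as over all genes, with 16 estimates above 0 and 16 below, from -0.16 to 0.13. All 32 members overlapped between genotypes, where 0.943% of all genes lay wholly above and 1.05% wholly below. Gjb1 had the smallest p, with a difference of 0.13 (95% interval -0.11 to 0.37), followed by Ndrg1 at 0.13 (95% interval -0.14 to 0.41) and Tmem125 at 0.10 (95% interval -0.16 to 0.36). The 95% intervals of all members lay between -0.68 and 0.57.

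**Figure D3:**
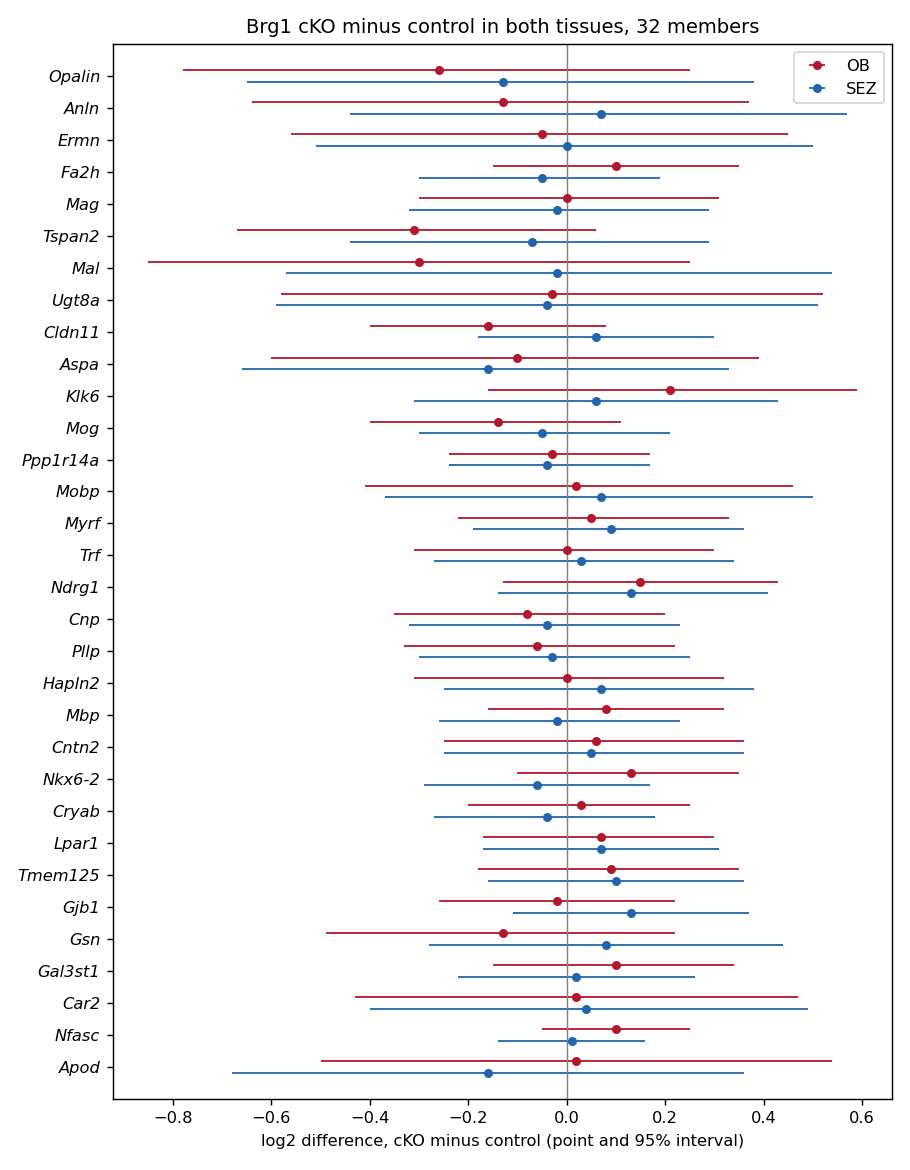
Difference cKO minus control (log2 units, horizontal axis) of each of the 32 members, ordered by the tissue difference in controls, in OB and in SEZ. Points are limma estimates and bars are 95% intervals; estimates run from -0.31 to 0.21 in OB and from -0.16 to 0.13 in SEZ, and every interval includes 0.

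The SEZ effect of genotype minus its OB effect was also tested, with 0 of the 32 members called and 0 at an unadjusted p under 0.05. Over all genes limma called 1 gene, 0.00502%, and 1.48% had an unadjusted p under 0.05. Member values had a median of 0.02 and ran from -0.19 for Nkx6-2 to 0.28 for Mal. Cldn11 had the smallest p, at 0.22 (95% interval -0.12 to 0.57), then Nkx6-2 at -0.19 (95% interval -0.51 to 0.14) and Gjb1 at 0.16 (95% interval -0.18 to 0.50). The intervals of all members lay between -0.92 and 1.06, wider than for either tissue alone.

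Other genes of the lineage were read from 4 further lists. For the counts below, 14.9% of all genes were called lower and 12.6% higher in OB controls, and 13.1% and 10% in OB cKO. Of 28 other myelin and oligodendrocyte genes, 21 were lower in OB controls than in SEZ controls and 1 was higher, with a median of -0.75. Tppp3, a tubulin polymerisation promoting protein that ependymal cells also express, differed by -1.85 in cKO (adjusted p = 1.04e-08) and -1.83 in controls (adjusted p = 2.82e-10). Tmem88b, a membrane protein, differed by -1.03 in cKO and -1.08 in controls. Sox8, a SoxE factor, differed by -0.95 in cKO and -0.97 in controls, and Tppp, which organises oligodendrocyte microtubules, by -0.84 and -0.78. Phldb1, the one gene called higher, differed by 0.57 in cKO and 0.29 in controls. Between cKO samples the list had 20 lower and 1 higher.

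Of 16 progenitor and differentiation genes, 5 were lower and 1 higher in OB cKO, and 6 were lower and 2 higher in OB controls, with a median of -0.22 in controls. The higher counts were no larger a share than over all genes. Enpp6, which marks newly forming oligodendrocytes, differed by -1.13 in cKO (adjusted p = 0.000549) and -1.17 in controls (adjusted p = 1.94e-05). Lhfpl3, which progenitors express, was higher in OB, by 0.92 in cKO and 0.52 in controls. A list drawn up for enzymes of myelin lipids outside the members held 15 genes, not all of them lipid enzymes. Of these, 10 were lower and 1 higher in OB controls, with a median of -0.39. Plpp2, a lipid phosphate phosphatase, differed by -0.80 in cKO and -0.97 in controls. Gamt, which makes creatine and is not a lipid enzyme, differed by -1.48 and -1.38.

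Proteins of nodes and paranodes went both ways, with 3 of 11 lower and 2 higher in OB controls and in OB cKO. On so few genes these counts are close to the shares over all genes, 14.9% lower and 12.6% higher in controls and 13.1% and 10% in cKO. Cntnap1, the axonal partner of glial Nfasc at the paranode, differed by -1.82 in cKO (adjusted p = 1.15e-07) and -1.74 in controls (adjusted p = 4.88e-09). Kcna1, the potassium channel of the juxtaparanode, differed by -0.82 in cKO and -0.74 in controls. Epb41l3, a membrane scaffold protein, was higher in OB by 0.86 in cKO and 0.90 in controls, and the adhesion molecule Nrcam by 0.69 and 0.68. Neurons make most of these proteins. For cKO minus control, 0 genes of the 4 lists were called in either tissue. The smallest p in OB was that of Vcan, a proteoglycan of progenitors, at -0.66 (SE 0.16, limma unadjusted p = 0.00059, adjusted p = 0.436). Vcan had 8.65, 8.89 and 8.76 in OB cKO, against 9.41, 9.45, 8.93, 9.53 and 9.83 in OB controls, so that all 3 cKO arrays lay below the 5 controls, and in SEZ it differed by 0.04 (SE 0.16, adjusted p = 1).

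Within groups the members moved together from array to array, most of all in SEZ. In SEZ controls replicate 2 was the highest array for 21 of the 32 members and replicate 5 for 9, while replicate 3 was the lowest for 22. Replicates 2 and 5 each lay above the group mean for 31 members, replicate 1 for 6 and replicate 3 for 3. In SEZ cKO replicate 1 was the highest for 23 members and replicate 3 the lowest for 26. In OB cKO replicate 2 was the highest for 22 and replicate 1 the lowest for 22. The OB controls were more even, with replicate 5 highest for 15. The mean over the 32 members was 9.52, 9.82 and 9.63 in OB cKO and 9.65, 9.72, 9.65, 9.62 and 9.74 in OB controls, against 10.76, 10.62 and 10.44 in SEZ cKO and 10.42, 10.90, 10.31, 10.53 and 10.84 in SEZ controls. This pattern was not particular to the members. In SEZ controls the mean over 28 other myelin genes was 9.73, 9.98, 9.69, 9.72 and 9.98. Over 16 progenitor genes it was 9.18, 9.35, 9.16, 9.22 and 9.40, and over the lipid list 10.06, 10.32, 10.06, 10.23 and 10.36. These lists were high in replicates 2 and 5, while the nodal list was highest in replicates 4 and 5.

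**Figure D4:**
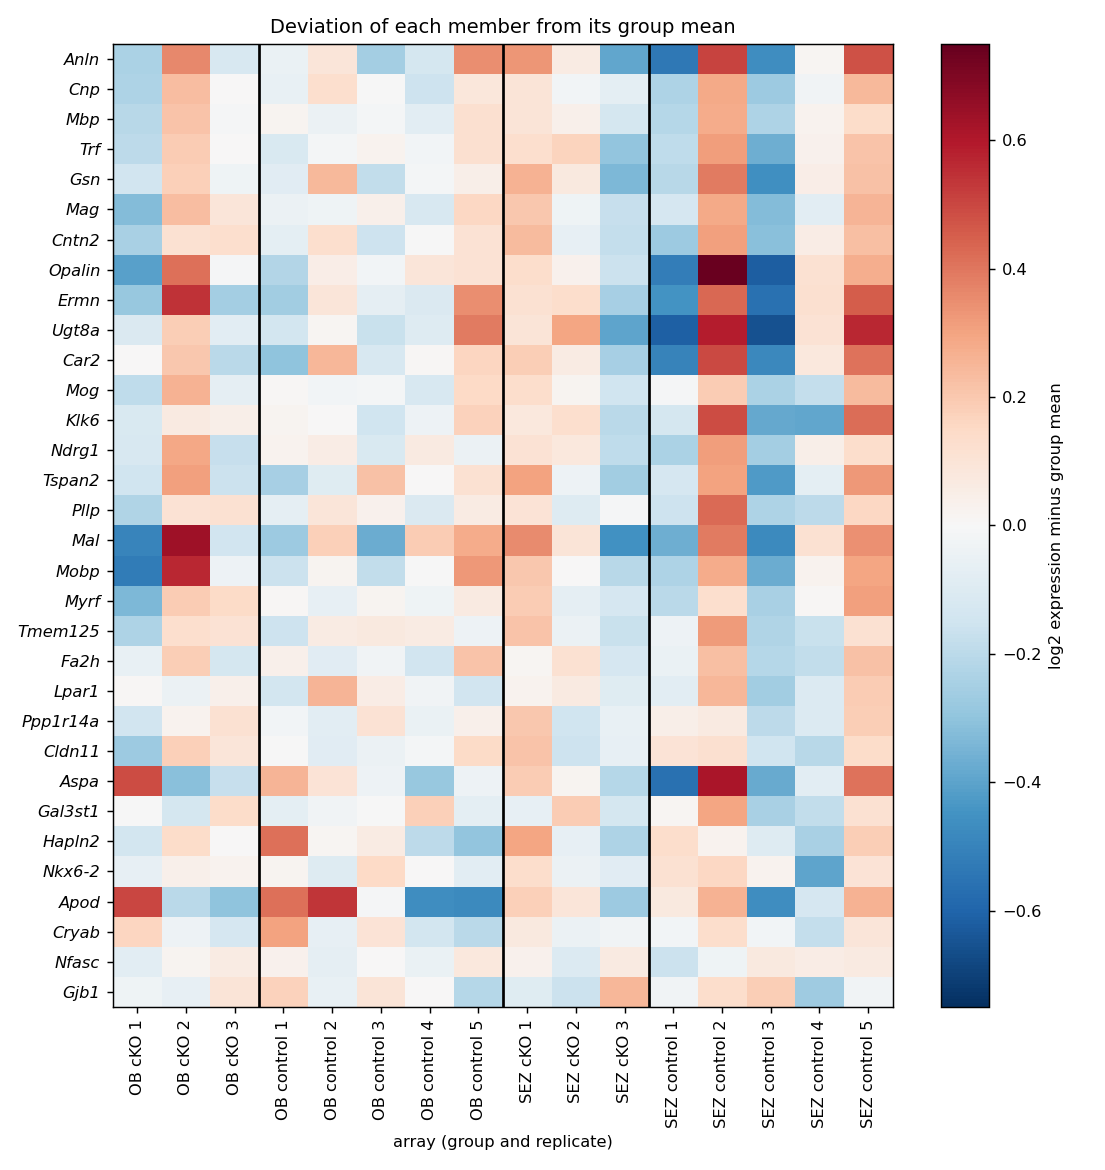
Deviation of each of the 32 members (rows) from its group mean on each of the 16 arrays (columns), as colour in log2 units. In SEZ nearly whole columns share a colour, high in control replicates 2 and 5 and in cKO replicate 1 and low in control replicates 1 and 3 and cKO replicate 3, while OB controls are paler.

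The first principal component of these deviations held 84.2% of the members' variance over the 8 SEZ arrays, against 52.2% for all genes, and 62.1% over the 8 OB arrays, against 46% for all genes. The median within-group SD of members was 0.16 in OB and 0.23 in SEZ, against 0.13 and 0.14 over all genes, and 27 members spread more in SEZ. Mal and Ugt8a had the widest spread, with an SD of 0.41 each, then Apod with 0.38. Nfasc had the narrowest with 0.08, then Ppp1r14a with 0.13 and Cryab with 0.15. In SEZ, 30 members correlated above 0 with the mean of the other members over the 8 arrays, with a median of 0.92. The exceptions were Gjb1 (-0.22) and Nfasc (-0.01). In OB the median was 0.69 over 8 arrays, and 7 members lay below 0. These were Aspa (-0.63), Gal3st1 (-0.60), Gjb1 (-0.46), Cryab (-0.43), Apod (-0.42), Lpar1 (-0.09) and Nkx6-2 (-0.03). The arrays share their RNA among all members, so these correlations only describe the samples.

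Aspa, Apod and Cryab were highest in OB cKO on replicate 1, where 22 members were lowest. Aspa had 8.83, 8.03 and 8.17 in OB cKO, against 8.70, 8.55, 8.41, 8.16 and 8.41 in OB controls. Outside the members, the genes whose deviations followed the member mean most closely over the 16 arrays were Arhgap23 (r = 0.97), Pacs2 (0.95), Prkcq (0.95), Ccp110 (0.95), Sema4d (0.94), Jam3 (0.94), Mcrip1 (0.94), Tprn (0.93), Cdc37l1 (0.93) and Enpp6 (0.93). They are named for this likeness alone, which was picked out of all genes.

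Markers of other cells also varied between the SEZ control arrays, some with the members and some in reverse. The mean over 7 ependymal markers was 7.88, 7.52, 7.88, 7.53 and 7.49 in replicates 1 to 5, high where the members were low. The mean over 8 astrocyte markers was 10.37, 10.70, 10.35, 10.54 and 10.67, high where the members were high. The mean over 9 cortical neuron markers was 8.29 to 8.34 in SEZ cKO, against 8.40, 8.93, 8.40, 9.27 and 8.52 in SEZ controls, highest in replicates 4 and 2. The mean over 8 striatal neuron markers was 12.73, 12.86 and 12.93 in SEZ cKO and 12.90, 12.71, 12.92, 12.85 and 12.76 in SEZ controls. In both genotypes this order of the arrays was the reverse of that of the member mean, over a narrower range. Between the tissues the neighbours differed far more. The same striatal mean was 8.62 to 8.83 in OB cKO and 8.80 to 8.92 in OB controls. All 8 striatal markers were called lower in OB in both genotypes, where 13.1% of all genes were in cKO and 14.9% in controls. The mean over 6 bulb interneuron markers was 11.33 to 11.41 in OB cKO and 11.26 to 11.50 in OB controls, against 7.27 to 7.68 in SEZ cKO and 7.41 to 7.67 in SEZ controls. The part of the neighbouring tissue in the member values was not tested. Without SEZ control replicates 2 and 4, 28 members were lower in OB controls, where 2576 of all 19938 genes were called lower.

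**Figure D5:**
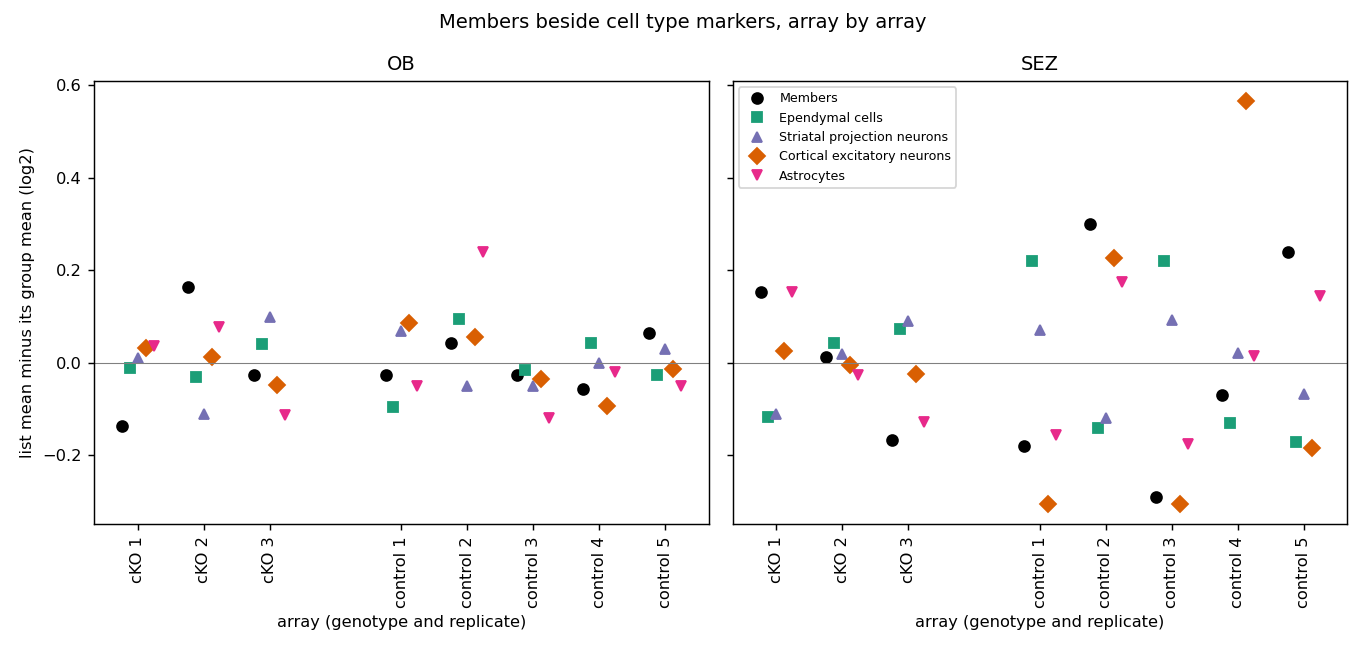
Mean over the 32 members and over 4 lists of cell type markers on each array, minus the mean of its group (log2 units, vertical axis), in OB and in SEZ. In SEZ controls the members and the astrocyte markers are high in replicates 2 and 5, where the ependymal markers are low, and the cortical markers peak in replicate 4.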

How the data were processed

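RNA from 16 samples was labelled with a whole-transcript kit and hybridised to 1 Affymetrix array each, per the labels' protocols. The deposited log2 values were made by the authors with RMA, which subtracts background, equalises the arrays' distributions and combines probes, in Affymetrix Expression Console 1.2, per the submitters' processing notes. The probe sets' genome build, not given in the sources used here, played no part in the tests. Of 35556 probe sets, 21789 had 1 symbol, 1621 had several and 12146 had none, and only the first kind was used. Of those, 21698 had an Entrez identifier in the RefSeq table of GRCm38.p6, which changed 0 symbols. The brightest probe set stood for each of 999 genes with more than 1, giving 19938 genes. Array medians lay between 7.45 and 7.65, and the number of arrays limits the precision.

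All 16 arrays were fitted in 4 groups of tissue by genotype by lmFit and eBayes of limma 3.58.1 (R 4.3.3), without covariates and with 12 residual and 4.34 prior degrees of freedom. Tests were two-sided, and the Benjamini-Hochberg adjustment ran over all genes. The method was tested on simulated data. The members, their role groups, the further lists and the marker lists were chosen with earlier results of these data known. All members are named. Values per array are given for the members with the largest and smallest OB minus SEZ difference in controls per role group, the 3 smallest p-values per genotype contrast, and the 3 widest and 3 narrowest spreads, and for Aspa and Vcan, which were singled out after their values were seen. From each further list up to 4 genes with the smallest p in a contrast were named.

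The labels do not say whether same-numbered OB and SEZ samples are from the same animal. For cKO replicate 1 they are not, since the sex-linked genes Xist and Kdm5d differ. Deviations of same-numbered samples from the group means correlated over all genes at -0.06, 0.25 and 0.39 for cKO replicates 1, 2 and 3. For control replicates 1 to 5 they correlated at 0.33, 0.36, 0.57, 0.17 and 0.47. With a mark of 0.1 in every pair, the numbers were taken as pairs in controls, from these data and not from the labels, and not in cKO. Same-numbered cKO and control samples, which come from different animals, were compared in the same way. For replicates 1 to 3 they correlated at 0.43, 0.33 and 0.32 in OB and at -0.41, 0.13 and 0.61 in SEZ. Such a correlation therefore cannot show by itself that samples share an animal. Control replicate 5 is labelled with different genotypes in OB and SEZ, so that number may not be a pair. Alternatives were the arrays compared alone, bright genes alone, cyclic loess, median centring, array weights, an intensity trend, the replicate block, the mean of probe sets, a threshold of 0.1 and leaving out arrays. Since each member had exactly 1 probe set, the mean of probe sets left the members' values and differences unchanged. For the tissue contrasts and the difference between tissues, the replicate block paired same-numbered OB and SEZ samples within each genotype. For cKO minus control it joined all arrays of the same number, which mixes animals of different genotype.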

Additional observations from a re-analysis of the deposited data

Results flagged for a closer look

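In each group of 5 controls the highest and lowest array of every member was compared with its neighbours, and 2 of 64 such tests found an array far from the rest, where chance gives about 1 in 20. Gal3st1 was highest in OB control replicate 4 at 7.64, the nearest other OB control being at 7.46. Nkx6-2 was lowest in SEZ control replicate 4 at 8.52, the nearest other SEZ control being at 8.94.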

How the results depend on the processing

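Across the alternatives run, the count of members lower in OB ranged from 22 to 29 in cKO and from 26 to 31 in controls, against 28 and 29 as reported, and leaving out 1 array gave 26 to 28 and 28 to 30. The lowest cKO count came without the cKO replicate 1 pair, and the lowest control count from the bright genes alone, which held 29 of the members. Over all genes these settings called 1687 of 19938 lower in cKO and 2142 of 9969 lower in controls. The median tissue difference ran from -1.06 to -0.82 in cKO and from -1.12 to -0.90 in controls. For genotype, 0 members were called under every alternative run, in either tissue and in the difference between tissues, the last of which was not run on the compared arrays alone. The lowest adjusted p was 0.453 in OB (Tspan2 without OB cKO replicate 2). It was 0.86 in SEZ (Ndrg1 with the replicate block, here across genotypes) and 0.943 for the difference between tissues. Of single calls on tissue, 12 were lost and 1 gained in cKO and 9 were lost and 4 gained in controls, of 925 values each, and 0 called values changed sign. Gsn in controls was also lost without SEZ control replicates 2 and 4 (adjusted p = 0.218) and without replicate 5 of both control groups (0.116), where Gal3st1 was lost too (0.0526). The replicate block gave 29 members lower in OB cKO and 30 in OB controls, the added call being Car2 (adjusted p = 0.044 in cKO and 0.016 in controls), and it changed no other call on members. Over all 19938 genes the block called 3238 lower in cKO and 3431 in controls. In cKO it paired samples not taken as pairs, replicate 1 being from different animals, so its cKO call of Car2 is no paired result. The spread shared by both contrasts also includes those cKO pairs. Leaving out pairs of arrays chosen for their markers was added after seeing the data.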
